A study of Mus musculus with 6 samples.

Results

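The 9 genes Alx1, Alx4, Msx1, Msx2, Barx1, Prrx1, Prrx2, Hmx1 and Gsc encode homeodomain transcription factors known from the neural crest mesenchyme of the face. They were chosen by symbol from the 32285 genes of the deposited gene list, and each symbol matched 1 row. Single-cell RNA was collected from the microdissected cardiogenic region of wild type C57BL/6 mouse embryos at E10.5 (embryonic day), with 3 samples from vehicle-pretreated females and 3 from females pretreated with streptozotocin (STZ), a toxin of insulin-producing cells that raises blood glucose. All females had been mated to males with normal glucose, so the agent acted on the mother, and the labels say that other mesoderm, ectoderm and endoderm came along with the heart. The study compares maternal hyperglycaemia with normal pregnancy, but the deposited matrix holds 6 libraries told apart only by the number at the end of each barcode, and nothing used here pairs that number with a sample. The libraries are therefore given one by one, without a treatment, the matrix counts as 1 sample, and no test was made. The labels' descriptions name a chromatin assay, while titles, kit and library source name RNA, and the values were read as RNA counts.

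Homeodomain proteins bind DNA through a compact helical domain encoded by the homeobox. Cranial neural crest cells leave the dorsal neural tube and fill the pharyngeal arches, where Hox genes mark the arch they entered, and Dlx genes with Hand2 mark the position between its base (proximal) and its tip (distal). Alx and Prrx factors shape facial and limb mesenchyme, Msx factors act in tissues that receive BMP signals, Barx1 marks sites of teeth, cartilage and stomach mesenchyme, Hmx1 acts in the outer ear and cranial ganglia, and Gsc acts in the jaw and middle ear.

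The homeoboxes of the Prrx and Alx paralog pairs are shown because several results below compare the members of a pair. They were read from the GENCODE M21 transcripts of the mouse build GRCm38 (mm10), 5′ to 3′ along the gene, and capitals mark the bases that differ between the members of a pair.
Prrx1: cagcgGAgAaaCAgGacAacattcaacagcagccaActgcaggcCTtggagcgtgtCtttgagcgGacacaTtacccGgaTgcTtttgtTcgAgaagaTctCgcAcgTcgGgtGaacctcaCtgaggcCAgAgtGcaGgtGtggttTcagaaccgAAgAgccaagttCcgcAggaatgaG
Prrx2: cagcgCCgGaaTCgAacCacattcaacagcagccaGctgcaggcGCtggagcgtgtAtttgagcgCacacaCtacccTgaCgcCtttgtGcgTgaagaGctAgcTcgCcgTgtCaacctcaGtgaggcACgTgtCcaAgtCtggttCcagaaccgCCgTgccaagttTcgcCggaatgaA
Alx1: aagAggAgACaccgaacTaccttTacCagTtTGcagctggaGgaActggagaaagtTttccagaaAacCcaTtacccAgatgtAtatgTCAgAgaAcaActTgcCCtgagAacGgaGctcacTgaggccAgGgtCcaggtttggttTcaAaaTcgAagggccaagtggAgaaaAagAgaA
Alx4: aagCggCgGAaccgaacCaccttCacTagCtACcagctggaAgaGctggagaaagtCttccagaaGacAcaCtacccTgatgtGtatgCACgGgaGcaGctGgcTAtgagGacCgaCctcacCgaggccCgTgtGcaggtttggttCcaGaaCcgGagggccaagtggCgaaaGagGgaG
Of 180 bases, Prrx1 and Prrx2 shared 142, and Alx1 and Alx4 shared 138. Over the whole transcripts, the longest identical run was 19 bases for each of these pairs. All 4 homeoboxes are split over a pair of exons by an intron: that of Prrx1 spans 163257901 to 163261977 on chromosome 1 (minus strand), that of Prrx2 30878454 to 30879533 on chromosome 2 (plus), that of Alx1 103022264 to 103025272 on chromosome 10 (minus) and that of Alx4 93668528 to 93675337 on chromosome 2 (plus).

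In the same build, Alx1 (ENSMUSG00000036602) lies on chromosome 10 at 102998707 to 103030215 on the minus strand, and Alx4 (ENSMUSG00000040310) on chromosome 2 at 93642384 to 93681339 on the plus strand. Msx1 (ENSMUSG00000048450) lies on chromosome 5 at 37820485 to 37824583, minus strand, and Msx2 (ENSMUSG00000021469) on chromosome 13 at 53466884 to 53473074, minus strand. Barx1 (ENSMUSG00000021381) lies on chromosome 13 at 48662998 to 48666507, plus strand, and Prrx1 (ENSMUSG00000026586) on chromosome 1 at 163245119 to 163313710, minus strand. Prrx2 (ENSMUSG00000039476), Hmx1 (ENSMUSG00000067438) and Gsc (ENSMUSG00000021095) lie on chromosome 2 at 30834972 to 30881251 (plus), chromosome 5 at 35389108 to 35399730 (plus) and chromosome 12 at 104471209 to 104473330 (minus). The annotation places Ext2 across Alx4 on the opposite strand, and unnamed or predicted genes across Alx1, Prrx1 and Hmx1. How reads at those overlaps were counted was not examined.

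Barcodes with fewer than 2500 genes or more than 10% mitochondrial counts were dropped, which left 35962 of 53362 barcodes, 4903 to 7136 per library, with median depths of 30533 to 35634 unique molecular identifiers (UMIs, each standing for 1 captured RNA molecule). Cells were sorted into 15 classes by counting how many of a class's marker genes had a UMI, and none of the 9 genes was a marker. The class called crest mesenchyme-like needed at least 4 of Dlx1, Dlx2, Tfap2b, Twist1, Pdgfra and Ednra and held 4919 cells (13.7%, and 10.7% to 16.4% by library). In it, Dlx2 had a UMI in 94.2% of cells, against 7.43% of cells in the other named classes, while Tfap2b had one in 32.7%. Of these cells, 1906 (38.7%) had exactly 4 of the 6 markers, and 3255 cells outside every class had 3. Crest cells had a median of 2 of 8 erythroid markers, 1 marker each of 6 other lists (cardiomyocyte, endothelium, paraxial mesoderm, cushion, smooth muscle and surface ectoderm) and none of the rest. Another 1310 cells met gates that tied or were not ranked against each other and were set aside. Cells that met several mesenchyme gates and did not tie went to the class with the largest share of its markers. Cells that met a mesenchyme gate and the migratory crest gate counted as migratory crest. No doublet caller was run. A total of 141 barcode sequences occurred in more than one library, in 283 cells of which 35 were crest.

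The label craniofacial holds only in part for these cells. By Hox genes, 3091 crest cells were second arch-like (62.8%), 1543 belonged to the third and posterior arches (31.4%), and few were Hox-negative, as first arch and facial crest are. Of the Hox-negative cells, 212 (4.31% of crest) had Hand2 (distal), 34 had Dlx5 or Dlx6 without it (intermediate) and 7 had only Dlx1 or Dlx2 (proximal, maxillary-like). A cell without Dlx1 and Dlx2 could pass the crest gate only with all of Tfap2b, Twist1, Pdgfra and Ednra. The gate thus limits how much crest without Dlx genes could be seen, and 1 such Hox-negative cell passed. Pitx1 and Lhx6, homeobox genes of the jaw primordia, stood at 1.09 and 0.231 CPM in crest cells, where CPM is counts per 1000000 UMIs, both summed over the cells of a class, although Pitx1 reached 14.1 CPM in the Hox-negative distal cells. By library, Pitx1 ranged from 0.143 to 5.05 CPM in crest cells. The Hox gate is not clean: a UMI of Hoxa2 or Hoxb2 was also seen in 35.3% of cardiomyocyte-like cells, against 93.5% of crest cells. A cell with fewer than 4 UMIs of the 7 more posterior Hox genes counted as second arch if it had a UMI of Hoxa2 or Hoxb2. Hoxb2 also stood at 82.2 to 115 CPM in the third and posterior arches, so the second arch-like cells may include some of theirs. Libraries also differed in which crest they held. Second arch cells without Dlx5, Dlx6 or Hand2 made up 1.42%, 0.480% and 0.134% of crest cells in libraries 1 to 3 and 21.3%, 14.8% and 24.9% in libraries 4 to 6, so levels are also given by arch and position below. The numbers of genes per cell, the pairs of genes and most shares of cells with a UMI pool all crest cells.

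Of the 9 genes, 4 had their highest level in crest mesenchyme-like cells: Barx1, Prrx1, Hmx1 and Gsc. Among 11645 other genes at 10 CPM or more in a named class, gate markers left out, 6.11% were highest there. The same 4 genes were at least 2-fold above every other named class, a pattern met by 0.12% of those genes. The other 5 peaked elsewhere: Alx1 in migratory crest and glia, Alx4 in paraxial mesoderm, Msx1 and Prrx2 in endocardial cushion mesenchyme, and Msx2 in surface ectoderm. The median ratio of the crest level to the highest other class was 0.695 over the 9 genes and 0.599 over those 11645 genes. The sets are unlike, because the 9 include Alx4, which reached at most 5.87 CPM in a named class, under the 10 CPM minimum. Without Alx4 the members' median would lie between the ratios of Msx2 (0.695) and Prrx1 (2.01). Intervals are 95% exact intervals and reflect only how many UMIs were counted, without the spread among embryos.

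**Figure D1:**
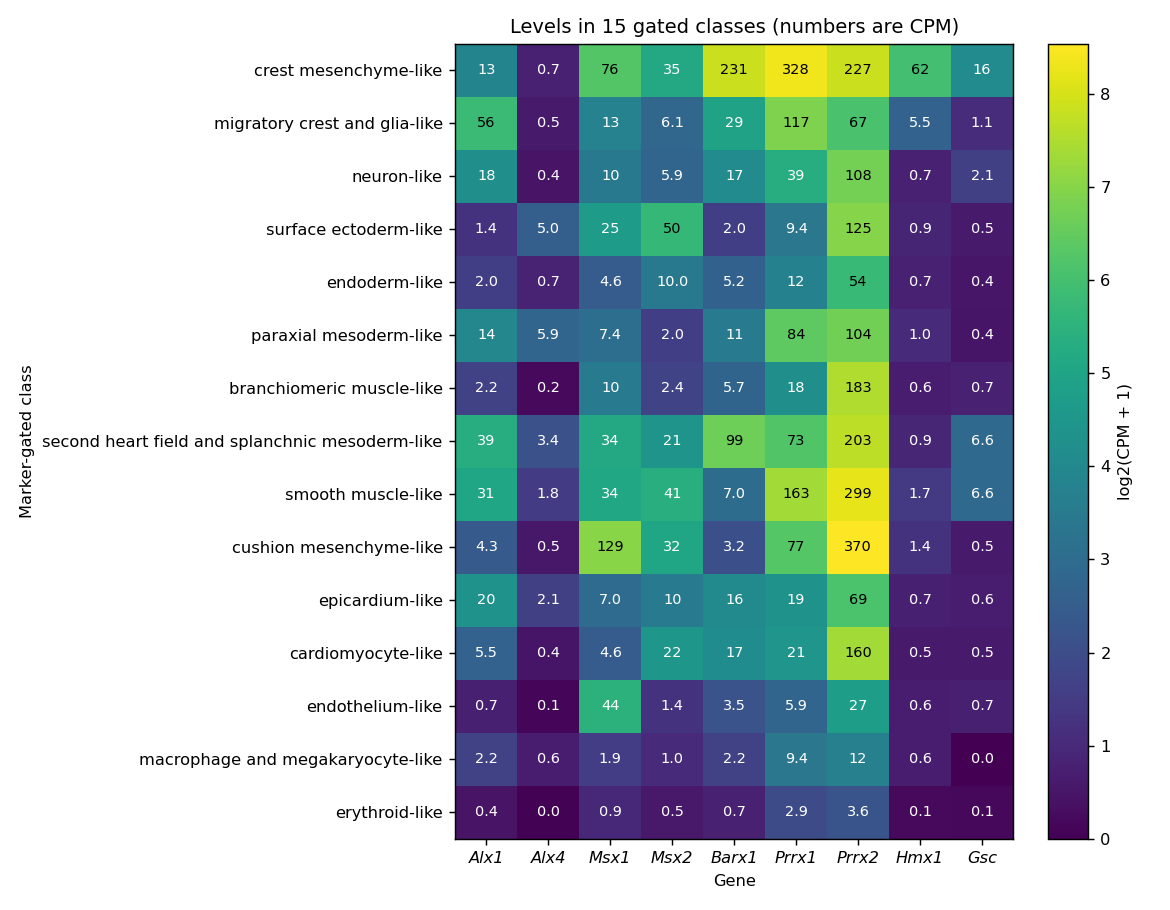
Level of each of the 9 genes (columns) in the 15 marker-gated classes (rows); the printed numbers are CPM over all libraries and the colour is log2(CPM + 1). Hmx1 stands at 62.4 CPM in crest mesenchyme-like cells and at 5.48 CPM or less in the other classes shown, while Prrx2 reaches 370 CPM in cushion mesenchyme-like cells.

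Prrx1, a paired-type factor of early limb and face mesenchyme, stood at 309, 350, 390, 312, 309 and 301 CPM in the crest cells of libraries 1 to 6. The pooled level was 328 CPM (interval 325 to 330), against 163 CPM in smooth muscle-like cells, the next class. Crest was above smooth muscle in 6 of 6 libraries, and the ranges of the libraries did not overlap (139 to 193 CPM in smooth muscle). The ratio was 2.01 (interval 1.95 to 2.07), and 1.93 without library 3, so this gene only just meets the 2-fold mark.

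Barx1, a Bar-type factor of tooth, cartilage and stomach mesenchyme, stood at 265, 199, 257, 213, 226 and 218 CPM in crest. The second heart field and splanchnic mesoderm-like class came next at 98.9 CPM, with 9.81, 14.03, 26.2, 66.5, 249 and 59.4 CPM by library. Library 5 alone reached the crest level there and in fact exceeded its own crest value, so the ranges overlapped through that library. The pooled ratio was 2.34 (interval 2.29 to 2.39), and 5.62 without library 5, when the second heart field level was 41.3 CPM.

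Hmx1, a factor of outer ear and cranial sensory ganglia, was the most crest-restricted of the 9 by this ratio. Its crest levels were 101, 57.6, 113, 26.8, 41.4 and 23.6 CPM in libraries 1 to 6. The next class, migratory crest and glia, stood at 5.48 CPM, and the ratio was 11.4 (interval 9.29 to 14.1), higher in 4 of the 4 libraries with at least 30 cells of both. Without the 5% of cells with the most UMIs the ratio was 48.2. Crest cells held 77.8% of all Hmx1 UMIs in the retained cells, the largest share among the 9 genes.

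Gsc, the goosecoid gene of jaw and middle ear crest, stood at 19.8, 14.7, 43.0, 5.46, 7.50 and 6.76 CPM in crest, with library 3 far above the others. Smooth muscle-like and second heart field-like cells both had 6.57 CPM. Crest was higher than smooth muscle in 5 of 6 libraries, with overlapping ranges (1.05 to 17.6 CPM in smooth muscle), and the pooled ratio was 2.495 (interval 2.15 to 2.91). Cells outside every gate stood at 17.4 CPM and held 43.8% of the gene's UMIs, so Gsc led in crest only among the named classes. In macrophage and megakaryocyte-like cells its count was 0, which allows up to 0.439 CPM by the rule of 3 counts (the exact interval ends at 0.540 CPM).

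Alx1, a paired-type factor without which the face and skull vault fail to form, stood at 8.99, 15.6, 9.83, 17.4, 17.5 and 12.6 CPM in crest mesenchyme. Migratory crest and glia-like cells had 55.7 CPM, with 75.3, 58.2, 50.5 and 54.98 CPM in libraries 2, 4, 5 and 6, all above the crest values. Second heart field-like cells stood at 38.5 CPM (30.7 to 63.3), smooth muscle-like cells at 31.2 and epicardium-like cells at 19.7 CPM. Migratory crest exceeded the second heart field class 1.44-fold (interval 1.34 to 1.55) in 4 of 4 libraries. Alx4, its paralog of limb and skull, was near the floor in crest at 0.720 CPM (0.418 to 1.53 by library). It reached 5.87 CPM in paraxial mesoderm-like and 5.01 CPM in surface ectoderm-like cells, which did not differ beyond counting error (ratio 1.17, interval 0.918 to 1.48). Cells outside every gate held 47.5% of its UMIs at 5.86 CPM, so this order holds only among the named classes. The low crest levels hold only for gated crest. Cells outside every gate with 3 of the 6 crest markers had 8.29 CPM of Alx4 and 38.5 CPM of Alx1.

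Msx1, a factor of BMP-responsive mesenchyme, stood at 84.5, 98.8, 108, 48.6, 53.9 and 53.0 CPM in crest. Cushion mesenchyme-like cells, the precursors of the heart valves, had 103, 101, 267, 134, 122 and 89.0 CPM in the same order. Cushion was above crest in each of the 6 libraries, though the ranges overlapped, and the pooled levels were 129 and 75.7 CPM (1.70-fold, interval 1.62 to 1.78). Endothelium-like cells also carried Msx1, at 44.2 CPM (32.9 to 56.1). Its paralog Msx2 was highest in surface ectoderm-like cells at 50.2 CPM (41.9 to 59.3), followed by smooth muscle-like cells at 40.6, crest at 34.9 (25.8 to 47.5) and cushion at 32.0 CPM. Cardiomyocyte-like cells, where Msx1 stood at 4.57 CPM, had 21.9 CPM of Msx2 (16.8 to 29.3).

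Prrx2 is the paralog of Prrx1 and was highest outside crest. Cushion mesenchyme-like cells had 398, 365, 202, 401, 396 and 443 CPM in libraries 1 to 6, against 216, 273, 212, 227, 237 and 204 CPM in crest. Library 3 of the cushion cells lay below every crest value and the other 5 lay above them all. Smooth muscle-like cells followed cushion at 299 CPM, and cardiomyocyte-like cells stood at 160 CPM (150 to 183).

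The share of crest cells with a UMI depends on depth, so each cell was also thinned to 10000 UMIs, which 4906 crest cells reached. Thinned, Prrx1 was seen in 87.5% of crest cells, Prrx2 in 76.8%, Barx1 in 53.8%, Msx1 in 32.0% and Msx2 in 20.8%. Hmx1, Gsc, Alx1 and Alx4 were seen in 16.3%, 10.5%, 10.4% and 0.693%. At full depth these shares were 98.4%, 95.6%, 68.6%, 51.3%, 41.4%, 25.8%, 22.9%, 24.7% and 2.60%. Erythroid-like cells, which should lack all 9 genes, gave thinned shares from 0 (Alx4) to 2.63% (Prrx2) and 0.853% or less for the 7 others apart from Prrx1 (1.99%). Their median depth was 64185 UMIs, against 42998 in crest. Thinned crest cells most often showed 3 of the 9 genes (32.5% of cells), 0.938% showed none, 5 cells showed 7, and none showed more.

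Every arch was split into distal (Hand2), intermediate (Dlx5 or Dlx6, no Hand2) and proximal (only Dlx1 or Dlx2) cells, which gave 8 domains with at least 30 cells. All 8 genes at 10 CPM or more in crest were at least 2-fold higher in their highest than in their lowest domain, against 12.2% of 8193 genes, and the median of that ratio was 33.3 for them and 1.35 for all genes. Only Alx1 and Gsc were 2-fold above the next domain (2 of 8, against 0.378%). With cells thinned to 10000 UMIs neither was, at 1.85 and 1.96 times, and without library 3 only Alx1 was. With the arches left whole except for Hox-negative cells, Alx1, Hmx1 and Gsc were 2-fold above the next region (3 of 8, against 1.05%). That call ended for Hmx1 under stricter gates and for Gsc after thinning. The stricter gates asked for more markers per class and more UMIs per Hox, Dlx or Hand2 call. A cell with only a UMI of Hoxa2 or Hoxb2 could then count as Hox-negative, so that call itself was looser. What part this had in the lost Hmx1 call was not tested. The next region of Hmx1 and Gsc was the 34 Hox-negative intermediate cells. These fell under the 30-cell minimum and were not compared when library 1 or library 3 was left out.

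**Figure D2:**
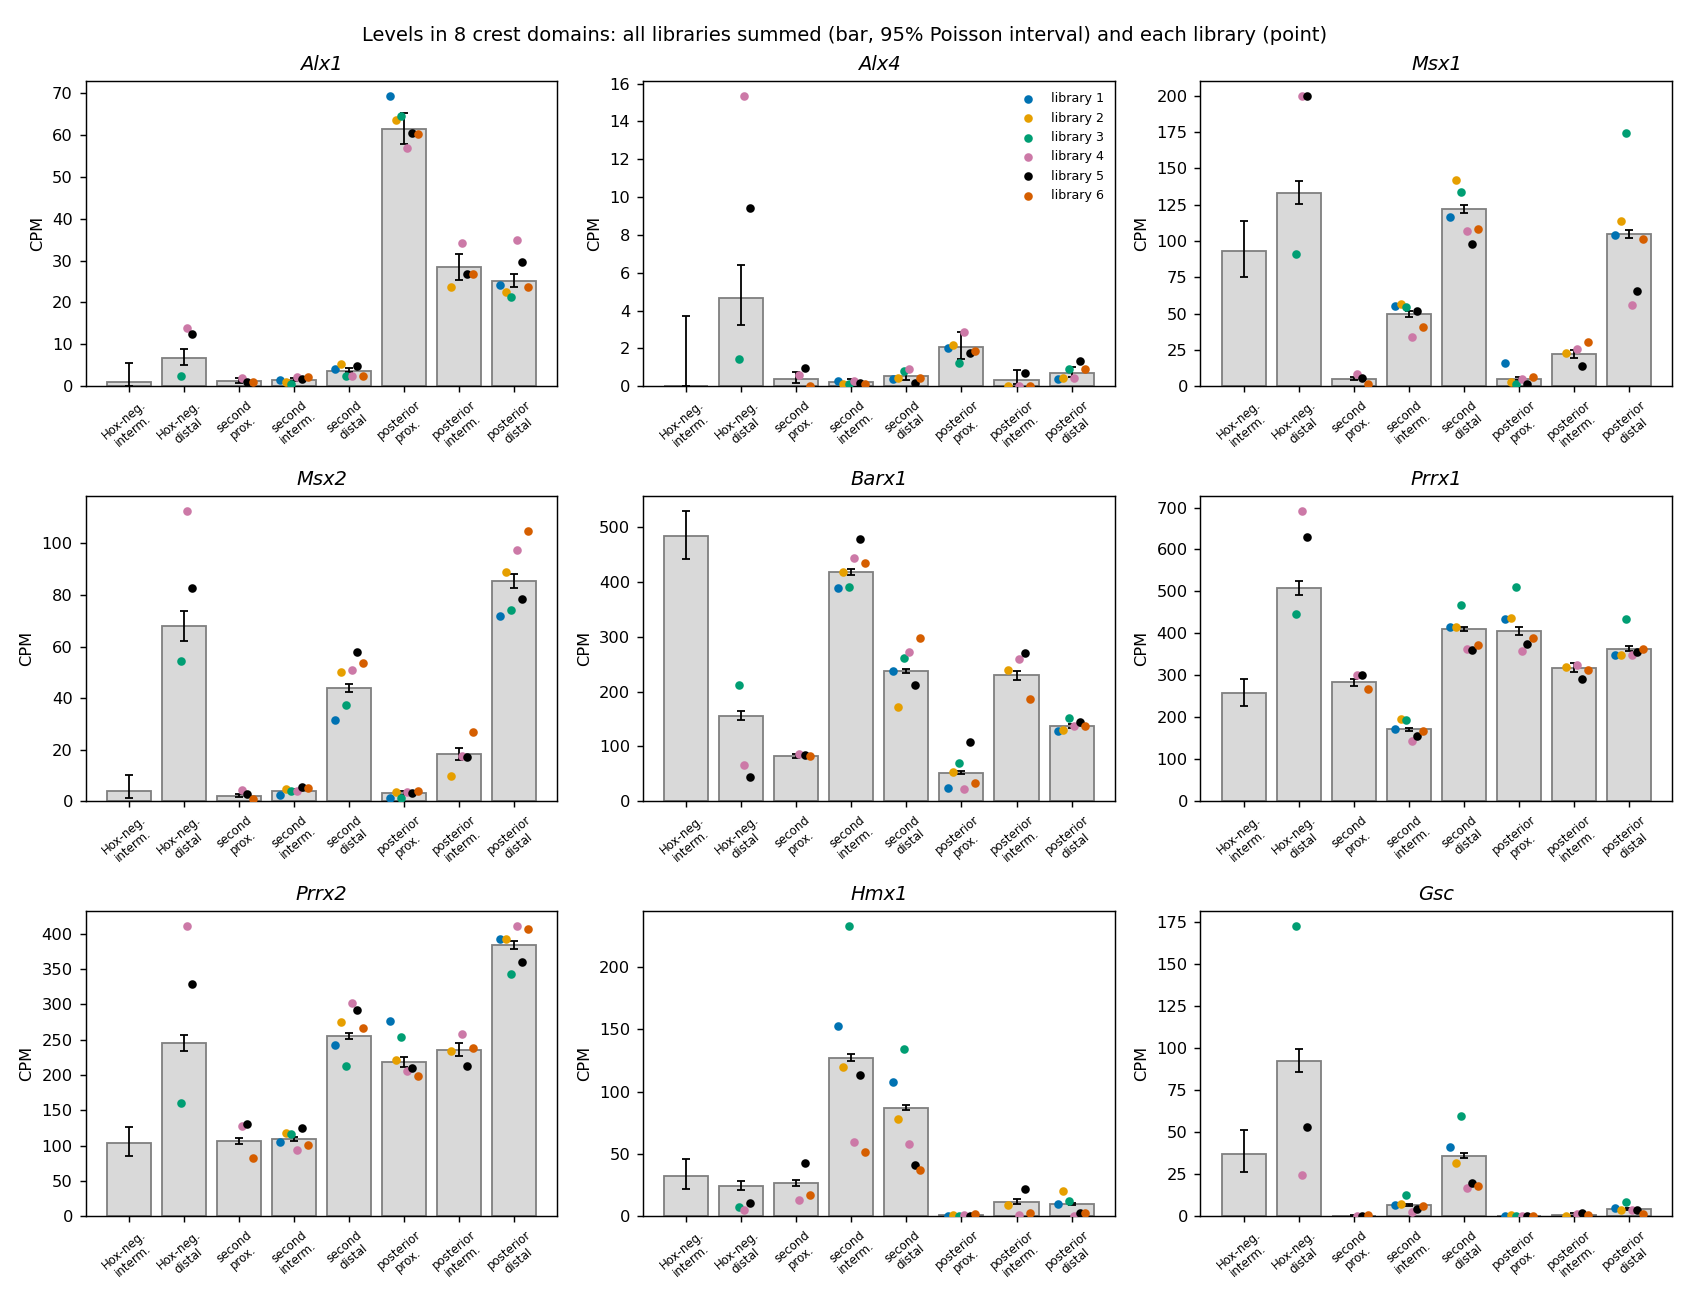
Level (CPM, linear axis from 0) of each gene in the 8 crest domains with at least 30 cells; bars are all libraries summed with 95% Poisson intervals, points are single libraries with at least 30 cells in the domain. Alx1 points in the proximal domain of the third and posterior arches lie between 56.8 and 69.4 CPM, above all its other points, while Barx1 peaks in the intermediate domains and Msx1 in the distal ones.

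Alx1 was highest in the proximal part of the third and posterior arches. It stood there at 69.4, 63.7, 64.7, 56.8, 60.5 and 60.3 CPM, with 28.4 CPM in the intermediate and 25.2 CPM (21.3 to 34.9) in the distal cells of the same arches. No library of another domain overlapped the proximal range, and the ratio to the next domain was 2.17 (interval 1.92 to 2.46), or 1.85 with thinned cells, under the 2-fold mark. In the second arch Alx1 was 1.31 to 3.74 CPM, and in the Hox-negative distal cells 6.71 CPM. Alx4, at levels too low for the count above, was highest in Hox-negative distal cells at 4.64 CPM and next in the proximal part of the third and posterior arches at 2.06 CPM. That ratio was 2.25, but 1.27 without library 4, which stood at 15.4 CPM in the Hox-negative distal cells and without which they had 2.35 CPM.

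Hmx1 was highest in the second arch. In its intermediate cells the libraries gave 152, 120, 233, 59.8, 113 and 51.3 CPM, and in its distal cells 108, 78.3, 134, 58.2, 41.0 and 37.6 CPM. The intermediate value was above the distal one in 6 of 6 libraries, although the ranges overlapped, and the pooled ratio was 1.46 (interval 1.41 to 1.51). In the third and posterior arches the pooled level dropped from 11.8 CPM in intermediate cells to 0.883 CPM in proximal cells, the domain where Alx1 was highest. The proximal second arch stood between these arches and the rest of the second arch, at 27.0 CPM. Of the 140 Hmx1 UMIs in the intermediate cells of the third and posterior arches, library 3 held 51 and library 5 held 61. Library 1 had 0 in 24 cells. Libraries 2, 4, 5 and 6 gave 8.802, 0.976, 22.025 and 2.498 CPM there. Their proximal cells had 1.26, 0.861, 0.593 and 1.57 CPM, so the drop was small in libraries 4 and 6. The Hox-negative values rested on single libraries: the distal 24.5 CPM was 10.1 CPM without library 1, and the intermediate 32.3 CPM was 6.81 CPM without the 3 cells of library 5 and 70.2 CPM without library 1.

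Barx1 followed the middle of each arch. The intermediate second arch stood at 389, 419, 391, 444, 479 and 435 CPM, above the distal second arch (171 to 297 CPM) in every library and above the proximal one (82.3 CPM) in the 3 libraries with at least 30 proximal cells. In the third and posterior arches the intermediate level was 230 CPM, against 137 CPM distally and 52.5 CPM proximally. The 34 Hox-negative intermediate cells had 485 CPM (interval 442 to 530) and the Hox-negative distal cells 157 CPM, so the intermediate level was above the distal one in all 3 arch groups. Prrx1 was the reverse in the second arch, with 172 CPM in intermediate, 283 in proximal and 411 CPM in distal cells, and it was flatter in the third and posterior arches (318 to 405 CPM). Its highest domain was the Hox-negative distal cells at 508 CPM (447, 692 and 629 CPM in libraries 3, 4 and 5), 1.24 times the distal second arch and above it in 2 of those 3 libraries.

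Msx1 and Msx2 were both highest in distal domains. Msx1 was 116, 142, 133, 107, 98.1 and 108 CPM in the distal second arch and 104, 113, 174, 56.1, 65.5 and 101 CPM in the distal part of the third and posterior arches. The pooled values were 122 and 105 CPM, with overlapping libraries, while the Hox-negative distal cells stood at 133 CPM; the order of these last cells and the distal second arch turned when library 4 or 5 was left out. Proximal cells had 4.97 CPM in the second arch (8.22 without library 6) and 5.01 CPM in the third and posterior arches. Msx2 was 71.9, 89.0, 74.2, 97.5, 78.6 and 105 CPM in the distal part of the third and posterior arches, above every library of the distal second arch (31.5 to 58.0 CPM). Hox-negative distal cells had 67.9 CPM of Msx2, with 54.4, 113 and 82.7 CPM in libraries 3, 4 and 5, and the distal level of the third and posterior arches exceeded that in only 1 of those 3 libraries. In the intermediate second arch, where Msx1 was 49.7 CPM, Msx2 was 4.07 CPM and at most 5.73 CPM in any library.

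Prrx2 was highest in the distal part of the third and posterior arches, at 393, 393, 343, 411, 359 and 406 CPM. Every library there was above every library of the distal second arch (213 to 301 CPM), with a ratio of 1.502 (interval 1.47 to 1.53). The intermediate and proximal second arch stood at 109 and 107 CPM. Gsc was highest in Hox-negative distal cells at 92.4 CPM, but the 3 libraries with at least 30 such cells gave 173, 24.9 and 53.4 CPM (libraries 3, 4 and 5), and the level was 46.6 CPM without library 3. The next domain was the 34 Hox-negative intermediate cells at 37.4 CPM (ratio 2.47, interval 1.78 to 3.54), where no library had 30 cells to compare. In the distal second arch it stood at 41.0, 31.6, 59.5, 16.7, 19.8 and 18.0 CPM, against 2.39 to 12.7 CPM in the intermediate cells. It was 0.314 CPM or less in the proximal cells of both Hox-positive arch groups. Thinned, 41.2% of Hox-negative distal, 22.5% of distal second arch and 6.00% of intermediate second arch cells had a Gsc UMI (67.5%, 46.0% and 18.0% at full depth), against 0.142% of erythroid-like cells.

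Within an arch the levels also moved with the number of Hand2 UMIs per thinned cell. In the second arch, Barx1 was 332 CPM in the 2193 cells with no Hand2 UMI, 226 CPM in the 666 cells with 1 or 2, and 90.1 CPM in the 223 cells with 3 or more. Msx1 went the other way, at 55.1, 121 and 162 CPM, and so did Msx2 at 10.1, 44.1 and 61.0 CPM. In the third and posterior arches (989, 418 and 122 cells) Barx1 was 138, 125 and 43.4 CPM, Msx1 29.1, 113 and 169 CPM, and Msx2 29.2, 89.5 and 131 CPM. Prrx1 was 241, 418 and 509 CPM in the second arch, yet 371, 371 and 398 CPM in the third and posterior arches. Prrx2 was higher with Hand2 in both (133, 281 and 298 CPM, then 275, 423 and 466 CPM). Gsc was 11.6, 37.7 and 38.1 CPM in the second arch and stood at 4.55 CPM or less in the third and posterior arches. The 3 libraries of the second arch with at least 30 cells at 3 or more Hand2 UMIs each had less Barx1 there (55.8 to 92.3 CPM) than in their cells without Hand2 (372 to 399 CPM).

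**Figure D3:**
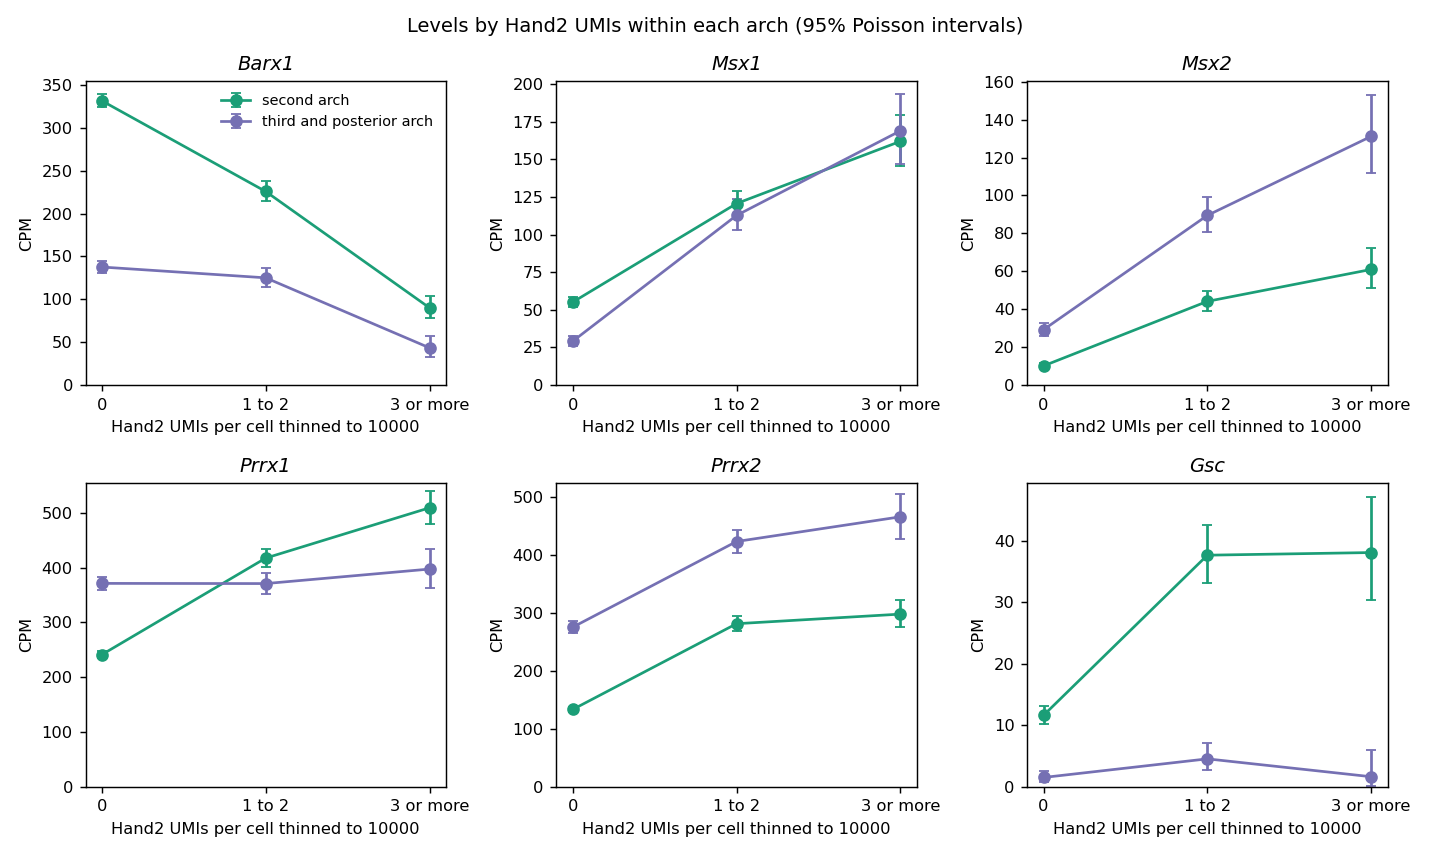
Level (CPM, 95% Poisson intervals) of 6 genes against the number of Hand2 UMIs in cells thinned to 10000 UMIs, for crest of the second arch and of the third and posterior arches. Barx1 is lowest at 3 or more Hand2 UMIs in both (90.1 and 43.4 CPM), and Msx1 is highest there (162 and 169 CPM).

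Cells were then compared for pairs of the 9 genes, over the 72 ordered pairs and without a test, since cells are not replicates. Alx1 and Hmx1 rarely met: after thinning, 1.12% of crest cells with Hmx1 had Alx1, against 12.3% of those without, and the share was lower in 6 of 6 libraries (8.75% and 30.2% at full depth). Gsc was seen in 19.3% of cells with Msx1 and 6.35% of those without, in the same direction in 6 of 6 libraries (36.1% and 9.13% at full depth). Msx2 was seen in 36.3% of cells with Msx1 and in 13.6% without it. Barx1 and Msx2 tended to be apart, with Msx2 in 14.5% of Barx1 cells and 28.2% of the others, lower in all 6 libraries. Hmx1 was in 20.05% of cells with Barx1 and 12.0% without, higher in 6 of 6 libraries. These pairs share the arch and position of their cells, and their part in the overlap was not tested.

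The balance between paralogs differed by class. Capture at each gene's 3′ end also sets such a share, so it is compared only between classes. The share of Msx1 among the UMIs of Msx1 and Msx2 was 97.0% in endothelium-like cells (94.5% to 98.2% by library), 80.1% in cushion, 68.4% in crest, 33.2% in surface ectoderm and 17.3% in cardiomyocyte-like cells (12.5% to 24.3%). Endothelium and cardiomyocytes thus lay at opposite ends with no overlap of libraries. Within crest the share was 92.4% in the intermediate second arch (88.8% to 95.6%), 73.5% in the distal second arch and 55.1% in the distal part of the third and posterior arches, where the libraries spanned 36.5% to 70.1%.

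Prrx1 made up 59.0% of the UMIs of the Prrx pair in crest (56.2% to 64.8%), 35.3% in smooth muscle-like and 26.6% in second heart field-like cells. In cushion, cardiomyocyte, branchiomeric muscle and surface ectoderm-like cells its share was 17.2%, 11.6%, 9.01% and 6.999%, all below every crest library. Within crest it ran from 72.6% in the proximal second arch to 48.7% in the distal part of the third and posterior arches. Alx1 made up 94.9% of the UMIs of the Alx pair in crest, 99.1% in migratory crest, 59.1% in Hox-negative distal cells (interval 48.1 to 69.5) and 21.3% in surface ectoderm-like cells.

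**Figure D4:**
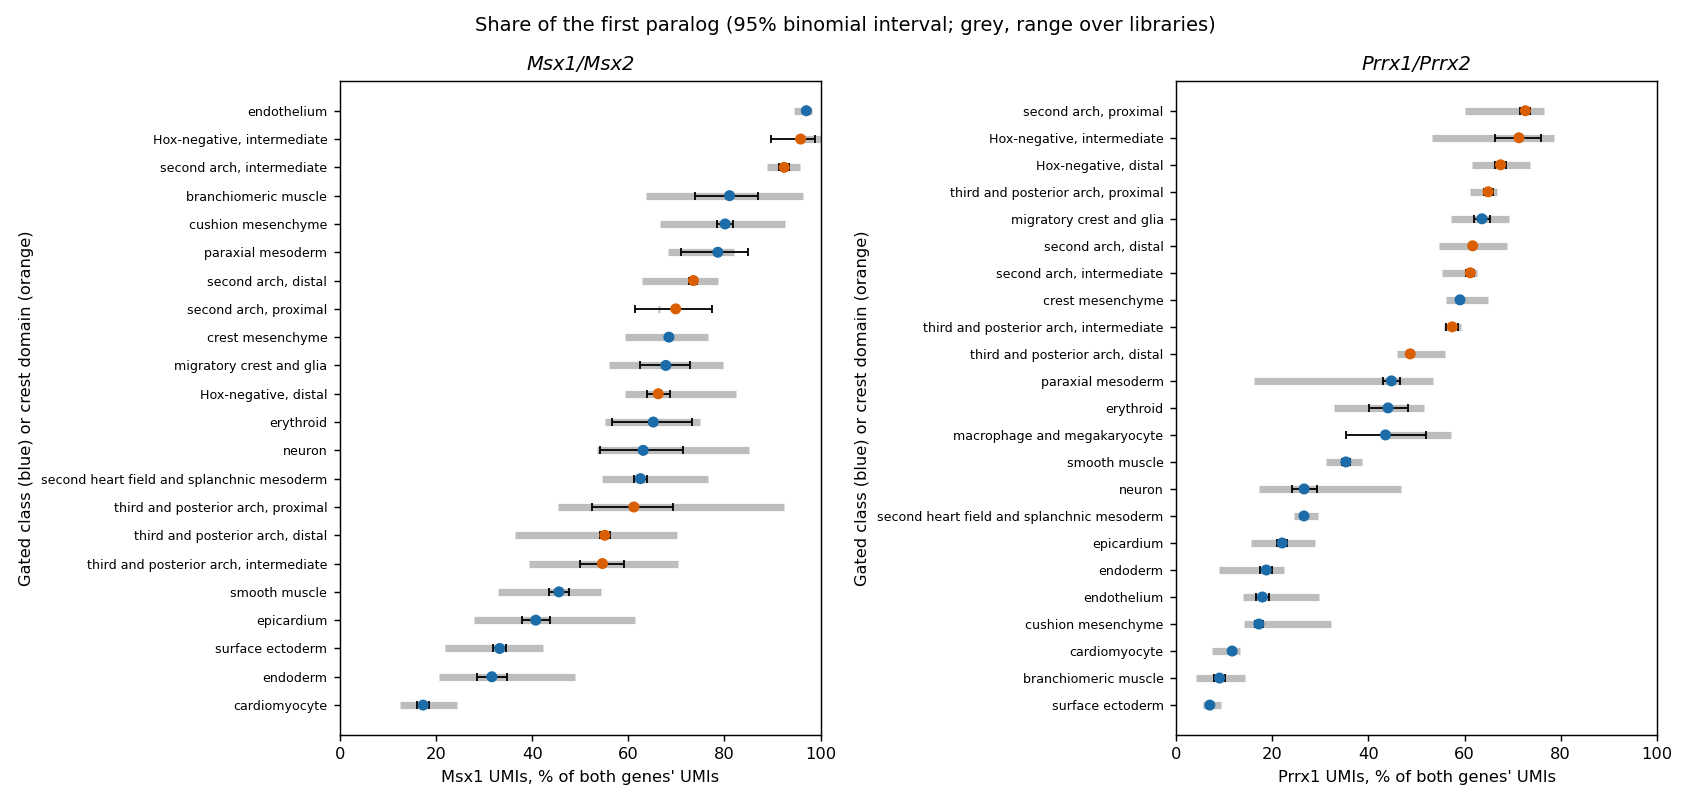
Share of the first gene in the summed UMIs of a paralog pair (percent) in each gated class (blue) or crest domain (orange) with enough UMIs; whiskers are 95% binomial intervals and grey bars the range over libraries. The Msx1 share runs from 17.3% in cardiomyocyte-like to 97.0% in endothelium-like cells, and the Prrx1 share from 6.999% in surface ectoderm-like to 72.6% in proximal second arch cells.

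Over the 6 libraries, Gsc, Hmx1 and Msx1 ranged at least 2-fold in crest mesenchyme-like cells, that is 3 of 8 genes, against 1.28% of 8193 genes. The highest library was 7.87 times the lowest for Gsc, 4.80 times for Hmx1 and 2.23 times for Msx1. Barx1, Prrx1 and Prrx2 ranged only 1.33, 1.30 and 1.34 times. The median range was 1.89 over the 8 genes and 1.18 over all. For Gsc, Hmx1 and Msx1, libraries 1, 2 and 3 were the 3 highest, and Alx1 had its highest values in libraries 4 and 5 (17.4 and 17.5 CPM). The same 3 libraries had few proximal second arch cells and 34.0%, 34.5% and 38.5% distal second arch cells, against 15.1%, 18.2% and 20.1% in libraries 4, 5 and 6.

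Libraries also differed within single domains. Hmx1 spanned 4.54 times in the intermediate and 3.58 times in the distal second arch, with library 3 highest and library 6 lowest in both, and 30.2 times in the distal part of the third and posterior arches (0.662 to 20.02 CPM). Gsc spanned 3.56 times in the distal second arch, from 16.7 CPM (library 4) to 59.5 CPM (library 3), 5.33 times in the intermediate second arch and 7.47 times in the distal part of the third and posterior arches (1.18 to 8.79 CPM). Msx1 spanned 1.68 and 1.45 times in the intermediate and distal second arch, under the 2-fold mark. In the third and posterior arches it spanned 3.10 times in the distal part and 13.3 times in the proximal part (1.22 to 16.2 CPM). In the distal second arch, 3 of 8 genes ranged 2-fold, against 1.54% of genes, Hmx1, Gsc and Alx1, the last at 2.43 to 5.41 CPM. The counts were 4 of 8 (2.1%) in the intermediate second arch. In the third and posterior arches they were 5 of 8 (7.4%) in the proximal part and 3 of 8 (2.16%) in the distal part. In that proximal part Hmx1 and Gsc had only 15 and 3 UMIs, with some libraries at 0. Barx1 spanned 4.89 times there, from 22.1 CPM (library 4) to 108 CPM (library 5). Several of the 2-fold ranges rested on levels under 10 CPM, where few UMIs were counted. How far treatment, dissection or stage moved with these libraries cannot be told apart here.

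**Figure D5:**
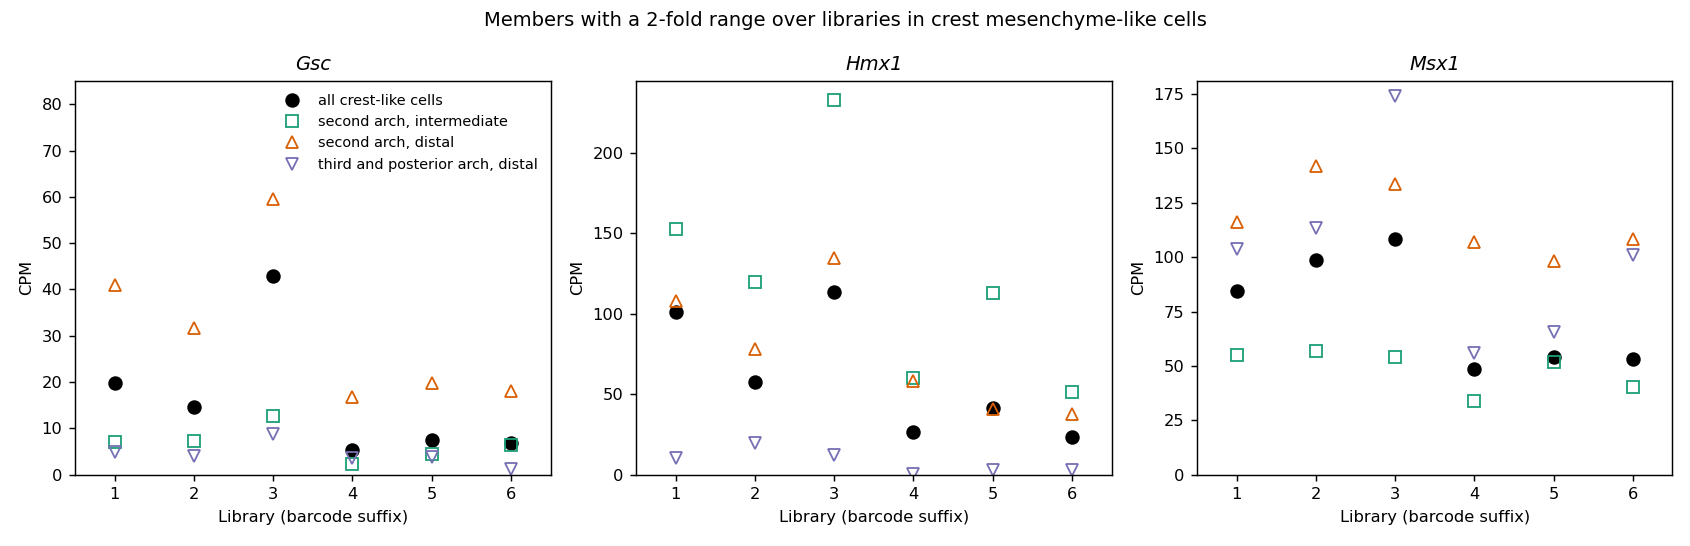
Level (CPM) of Gsc, Hmx1 and Msx1 in each library, in all crest mesenchyme-like cells (filled) and in 3 domains (open symbols). In the distal second arch, library 3 stands at 59.5 CPM of Gsc and libraries 4 to 6 between 16.7 and 19.8 CPM.

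Genes with the most similar levels were sought by Pearson's r of log2(CPM + 1), first over 81 sums per class and library, then over 34 sums per crest domain and library, each with at least 30 cells. These sums share cells' depth and library, so r is a description. Over classes, Prrx2 was most like Dact3, Wnt5a and Fzd2 (0.94, 0.92 and 0.90), which encode parts of the Wnt pathway, and Prrx1 most like Tmem119, Twist2 and Pdgfrb (0.88, 0.86 and 0.86). Msx1 was closest to Stx18 (0.87), which starts 214159 bases from Msx1 on chromosome 5, then Mmp2 and Rarg (0.83 and 0.82). Hmx1 was closest to Dlx4os, Dlx6os1 and 3110099E03Rik (0.89, 0.86 and 0.85), of which the first 2 are antisense to Dlx genes, and Alx1 to Lsamp, Crispld2 and Ddr2 (0.85, 0.83 and 0.80). Msx2, Barx1 and Alx4 were led by Synpo2 (0.84), Prr16 (0.73) and Ndnf (0.73).

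Over crest domains, Alx1 was most like Rara, Rarb and Scube1 (0.94, 0.92 and 0.92), the first 2 of which encode retinoic acid receptors. Msx2 was closest to Dkk1, Bambi and Gm34030 (0.94, 0.94 and 0.93), where Dkk1 encodes a Wnt inhibitor and Bambi a BMP pseudoreceptor, and Prrx2 was closest to Id3, Tgfb1i1 and P3h2 (0.96, 0.94 and 0.93). Gsc was led by Rps6ka6, Nfib and Dkk2 (0.93, 0.91 and 0.91), Hmx1 by Parp8, Sgcd and Trps1 (0.90, 0.89 and 0.89), and Msx1 by Gpc3, Epha7 and Fgfrl1 (0.88, 0.88 and 0.87). Prrx1, Barx1 and Alx4 were led by Igfbp4 (0.93), Prr16 (0.83) and Spats2 (0.81). Among the 9 genes themselves, Alx1 and Hmx1 were opposed (-0.87), while Msx1 ran with Msx2 and with Gsc (0.80 each).

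A list of 25 other craniofacial transcription factor genes, nearly all with a homeobox (Pax9 has none), gives the setting. Of these, 7 reached 10 CPM in crest and 1 of the 17 that reached it in any class was highest in crest, a share near the 6.11% of all genes: Dlx3, at 19.8 CPM, a gene of the outer arch and skin. Lhx8 and Dlx4 were also highest in crest, at 9.22 and 5.16 CPM, below the 10 CPM minimum. Meis2 and Meis1, cofactors of Hox proteins, were among the highest at 856 and 274 CPM, and each was higher in another class. Six2, a factor of kidney and skull base mesenchyme, was 71.6 CPM in the proximal part of the third and posterior arches and 30.7 CPM in the intermediate cells, the same order as Alx1. Of 20 signals and targets tied to these factors, 12 reached 10 CPM in crest, and of the 19 that reached it in any class none was highest there, which is not far from the 6.11% of all genes. The Id genes, BMP targets, led with Id3 at 568, Id1 at 332 and Id2 at 190 CPM, and Id3 peaked at 948 CPM in the distal part of the third and posterior arches, where Prrx2 was also highest.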

How the data were processed

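The authors deposited 1 matrix of UMI counts per gene and cell for all samples, and per the file headers the software was Cell Ranger 5.0.0; the submitters' processing notes also name mm10, CASAVA 1.8 and Seurat 4. Per the labels' protocols, libraries were made with a 10x 3′ kit, so counts come from transcript ends. From the deposited counts, UMIs were summed over gated cells and given as CPM with exact Poisson intervals, shares with Clopper-Pearson intervals and ratios with intervals from the binomial (95%). A gate counted markers with at least 1 UMI. The third and posterior arch needed 4 UMIs of 7 Hox genes. Cells below that count with 1 UMI of Hoxa2 or Hoxb2 were called second arch, also when they held some UMIs of the 7 genes. These minimums, and the split of every arch into 3 positions, were set after marker counts had been seen. The genes named were the 9 members, the 3 genes most like each and, of the other 2 lists, the highest 3 and those highest in crest or 2-fold by domain. Pitx1 and Lhx6, from the first list, were named outside this rule for the check of the label, and likeness within crest was taken over domains in place of the planned regions. Some genes and sequences that this rule covers are not reported here. Members and lists were chosen with earlier results of these data known. Thinning used seed 1. Python 3.11.15, NumPy 2.4.6, SciPy 1.17.1, pandas 2.3.3, Matplotlib 3.10.9 and Biopython 1.88 were used. The ranking of classes and the intervals of class ratios were tested on simulated sums. Gates, domains and the other steps were not. The planned test of STZ against vehicle was not run, because no file used here pairs a library with a sample. Alternatives were other cell filters, stricter gates, repeated barcodes or the deepest 5% of cells left out, other scalings and each library left out in turn. Stricter gates needed 1 more marker per class and more UMIs per Hox, Dlx or Hand2 call. Cells with 1 UMI of Hoxa2 or Hoxb2 could then be Hox-negative, and cells with 1 Hand2 UMI intermediate.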

Additional observations from a re-analysis of the deposited data

How the results depend on the processing

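No paired analysis was possible because no library could be matched to a sample, so the comparison of STZ with vehicle, with or without a replicate block, was not run. The count of genes highest in crest stayed at 4 under the other cell filters, stricter gates, other scalings and with each library left out, with the same 4 genes, and was 3 (without Gsc) when cells outside the named classes counted as classes, an alternative chosen after seeing the data. The count of 3 genes with a 2-fold region was 5 with each library weighing the same and ran from 3 to 5 with 1 library left out. It was 5 without library 3, with Msx1 and Barx1 added. The Hox-negative intermediate cells were then under the cell minimum and were not compared, and no single library reached that minimum. They were the highest region for Barx1 (485 CPM) and the next for Msx1 (92.9 CPM). They were also not compared without library 1, when the count stayed at 3. What part this lost region had in the added calls was not tested. The count was 2 under stricter gates, without Hmx1, and at 3 after thinning it held Alx1, Barx1 and Hmx1. The stricter gates loosened the Hox-negative call, which then allowed a UMI of Hoxa2 or Hoxb2. The count of 2 genes with a 2-fold domain, recomputed after seeing the data, was 0 after thinning and ran from 1 (without library 3, which ended the call for Gsc) to 2 with 1 library left out. The count of 3 genes with a 2-fold range over libraries was 4 under stricter gates, with Alx1 added, and 3 with any library left out. Of 246 recomputed member ratios, 243 stayed on the same side of 1 as reported. The 3 others were all Msx1 in Hox-negative distal over distal second arch cells, a log2 ratio of 0.12 that became -0.027 under stricter gates, -0.055 without library 4 and -0.013 without library 5, and ran up to 0.40 (without library 3) with 1 library left out; the cause was not tested. For Alx4, the ratio of Hox-negative distal to proximal cells of the third and posterior arches was 4.40 with each library weighing the same, and the ratio of crest to paraxial mesoderm was 0.123 and 0.0686 under stricter gates. Depth limits Alx4 throughout, and Gsc and Hmx1 outside their main domains.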

Other observations

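The second heart field and splanchnic mesoderm-like class (3138 cells) had a Barx1 UMI in 7.10% to 32.8% of its cells, depending on the library. Cells with at least 10 Barx1 UMIs were 0.645%, 1.90%, 2.35%, 6.96%, 16.9% and 6.25% of its cells, by library from 1 to 6, with library 5 well above the rest. Within the class, Barx1 stood at 249 CPM in cells without and 40.6 CPM in cells with a UMI of Tbx5, a T-box factor of the posterior heart field, and at 203 CPM without and 24.7 CPM with Wnt2, a signal of lung and inflow mesoderm. It was 201 CPM with and 24.4 CPM without Gata4, and 115 CPM with and 6.73 CPM without Foxf1, a factor of gut mesenchyme. Library 5 weighed on these values, at 700 CPM in its cells without Tbx5, against 3.90 to 122 CPM in the other libraries; in library 1 the orders for Tbx5 (3.90 CPM without, 14.02 CPM with) and Wnt2 (1.86 and 19.3 CPM) were the reverse. In cells without Foxf1 library 6 was highest, at 25.0 CPM of Barx1, against 2.04 to 7.22 CPM in the others. Alx1 had another distribution in the same class, at 85.01 CPM in cells without Foxf1 and 30.3 CPM with it, in the same order in all 6 libraries. The genes named for these splits were picked from the class's 8 markers after their values were seen. The gate needed 4 of these markers, so a cell without one had to carry others. Of the remaining markers, Gata6 differed little (96.5 CPM of Barx1 with it, 112 CPM without) and Osr1 moderately (114 and 50.7 CPM). Isl1 (140 and 13.3 CPM) and Tbx4 (21.8 and 141 CPM) differed widely.

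Cells outside every gate held 41.1% of Alx1, 47.5% of Alx4 and 43.8% of Gsc UMIs. Sorted by how many of the 6 crest markers they carried, from 0 to 3, their Prrx1 level was 69.2, 154, 242 and 309 CPM and their Gsc level 0.768, 9.96, 19.7 and 21.1 CPM. Alx1 (9.63, 25.4, 46.2 and 38.5 CPM) and Barx1 (11.4, 74.8, 55.2 and 81.9 CPM) did not rise at every step. The 3255 cells with 3 crest markers had 74.3 CPM of Msx1, close to the 75.7 CPM of gated crest, but 81.9 CPM of Barx1, against 231 CPM. They had 38.5 CPM of Alx1, against 13.3 CPM in gated crest, and 8.29 CPM of Alx4, against 0.720 CPM in gated crest and 5.87 CPM in paraxial mesoderm-like cells, the highest named class.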
